A study of Rattus norvegicus with 18 samples.

Results

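A set of 10 genes that make or use the main antioxidant systems of the cell, several of them textbook targets of the transcription factor Nrf2, were followed across 18 RNA libraries of the rat tibialis anterior, a shin muscle built largely of fast fibres. The genes were taken by symbol from the 30560 entries of the deposited tables, and 9 of the 10 were found: Hmox1, Nqo1, Txnrd1, Gclc, Gclm, Gpx1, Gpx3, Cat and Sod2. Srxn1 was not analysed here. At 9 months of age there were 3 wild-type (WT) libraries, 3 from the DMD genotype, used as a rat model of Duchenne disease, and 6 from rats labelled p16-null DMD, whose label names both changes. The other groups were WT rats of 3 and of 18 months, with 3 libraries each. The sources used here give no strain, sex or description of the alleles, RNA came from frozen tissue, and only the titles separate the libraries of a group, so p-values rest on the spread among these libraries, which may be technical.

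Nrf2, the product of Nfe2l2, is held in the cytoplasm and marked for breakdown by Keap1 and the Cul3 ubiquitin ligase. Oxidants and electrophiles modify Keap1, Nrf2 then enters the nucleus, pairs with small Maf proteins and binds antioxidant response elements, sites that Bach1 can occupy as a repressor. Its targets include haem oxygenase (Hmox1), quinone reductase (Nqo1), cytosolic thioredoxin reductase (Txnrd1) and both subunits of the enzyme that starts glutathione synthesis (Gclc and Gclm). Catalase (Cat), the glutathione peroxidases (Gpx1, Gpx3) and the manganese superoxide dismutase of mitochondria (Sod2) remove peroxide and superoxide and answer to other regulators as well. In dystrophic muscle, fibres are damaged and repaired repeatedly and immune cells enter, and both fibres and immune cells handle oxidants.

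RefSeq start-site windows of 300 bases (250 before and 50 after the start, build GRCr8) were matched for 9 of the 10 genes, Srxn1 among them and Hmox1 not, and searched on both strands for TGACNNNGC, the core of the antioxidant response element, which reads GCNNNGTCA on the other strand. The core was present in windows of 3 genes, Gclm, Txnrd1 and Sod2. Of all 33469 windows in that table, 12.1% held it. The windows of Gclm (chr2:213031885-213032184, + strand) and Gclc (chr8:87510226-87510525, + strand) are shown because they encode the paired subunits of 1 enzyme, compared below. Those of Txnrd1 (chr7:22755855-22756154, - strand, 1 of its 2 listed starts) and Sod2 (chr1:50050119-50050418, - strand) are shown as the others with a match. Capitals mark the core, which begins at position -172 in Gclm, -78 in Txnrd1 and -35 in Sod2, counting -1 as the base before the start. A match of letters is a description and shows no binding.
Gclm: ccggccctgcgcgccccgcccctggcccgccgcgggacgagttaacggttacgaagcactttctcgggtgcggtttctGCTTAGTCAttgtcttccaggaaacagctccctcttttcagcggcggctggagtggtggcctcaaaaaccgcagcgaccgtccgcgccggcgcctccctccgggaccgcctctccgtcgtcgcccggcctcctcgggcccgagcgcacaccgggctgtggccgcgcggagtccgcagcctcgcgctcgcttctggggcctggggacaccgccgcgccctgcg
Gclc: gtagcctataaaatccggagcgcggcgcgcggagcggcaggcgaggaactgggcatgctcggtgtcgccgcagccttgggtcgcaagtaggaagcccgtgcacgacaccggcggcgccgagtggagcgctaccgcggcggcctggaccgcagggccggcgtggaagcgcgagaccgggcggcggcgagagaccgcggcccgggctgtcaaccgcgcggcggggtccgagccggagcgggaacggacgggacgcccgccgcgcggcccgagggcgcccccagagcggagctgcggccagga
Txnrd1: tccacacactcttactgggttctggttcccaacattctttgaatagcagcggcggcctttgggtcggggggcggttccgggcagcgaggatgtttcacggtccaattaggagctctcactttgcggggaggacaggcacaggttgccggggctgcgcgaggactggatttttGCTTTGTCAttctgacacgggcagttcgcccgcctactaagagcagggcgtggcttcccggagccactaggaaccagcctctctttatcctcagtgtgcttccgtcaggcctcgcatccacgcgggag
Sod2: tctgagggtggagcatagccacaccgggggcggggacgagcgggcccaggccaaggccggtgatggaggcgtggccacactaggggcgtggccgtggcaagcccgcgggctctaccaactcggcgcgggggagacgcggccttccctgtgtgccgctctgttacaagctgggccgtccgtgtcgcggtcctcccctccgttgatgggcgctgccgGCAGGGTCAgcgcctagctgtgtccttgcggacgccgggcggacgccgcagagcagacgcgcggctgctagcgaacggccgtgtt

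The libraries' totals ran from 9.61 M to 21.99 M estimated counts (M, mega). Levels are given as CPM, estimated counts per mega-count after TMM scaling of all 18 libraries, in replicate order for groups of 3. Changes are log2 fold changes ± SE from edgeR's quasi-likelihood test, with Benjamini-Hochberg adjustment over all genes tested and a threshold of 0.05. Numbers in parentheses after a change are adjusted p-values, preceded by the change itself where the setting differs. Scaling bears on direction here. The median gene stood 0.11 (log2) higher in DMD than in WT with TMM, 0.76 higher by library totals and 0.64 higher in TPM, and between 18 and 3 months these shifts were close to 0, 0.24 and 0.29. As a check of the tissue label, 8 fast fibre markers summed to 31581 to 66059.6 CPM in p16-null DMD, 37363 to 58103 in DMD and 135663 to 152647 in WT at 9 months, and none was at 0. Dmd read 31.4 to 44.3 CPM in DMD, 30.9 to 54.1 in p16-null DMD and 114 to 167 in WT of 9 months. The Cdkn2a entry read 10.7 to 19.4 CPM in DMD and 10.1 to 15.3 in the libraries labelled p16-null DMD. The deleted part is not given in the sources used here and the entry covers the whole locus, so it does not check that label.

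In DMD muscle Hmox1, Gpx3, Nqo1 and Gpx1 were higher than in WT of the same age, and Sod2, Cat and Gclm were lower after TMM scaling, Cat and Gclm without a call or a clear direction by library totals or in TPM. Thus 4 of 9 genes were called higher and 3 lower, where 26.4% of all tested genes were higher and 21.8% lower. In p16-null DMD against WT the counts were 4 higher and 2 lower, with 27.5% and 22.7% of all genes. Both comparisons share the same 3 WT libraries. Between 18 and 3 months 5 genes rose (Hmox1, Nqo1, Cat, Gpx3 and Txnrd1) and Sod2 fell, against 9.31% and 10.1% of all genes. None of the 9 passed between p16-null DMD and DMD. The median change of the 9 was 0.57 in DMD and 0.54 at 18 months, and in both comparisons members moved in opposite directions. By library totals 6 were higher and 1 lower in DMD and in p16-null DMD, and 6 higher and 0 lower at 18 months. On that scale 52% of all genes were higher and 8.38% lower in DMD, 54.5% and 8.45% in p16-null DMD, and 19.3% and 4.83% at 18 months. The plot of levels by library shows every value.

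**Figure D1:**
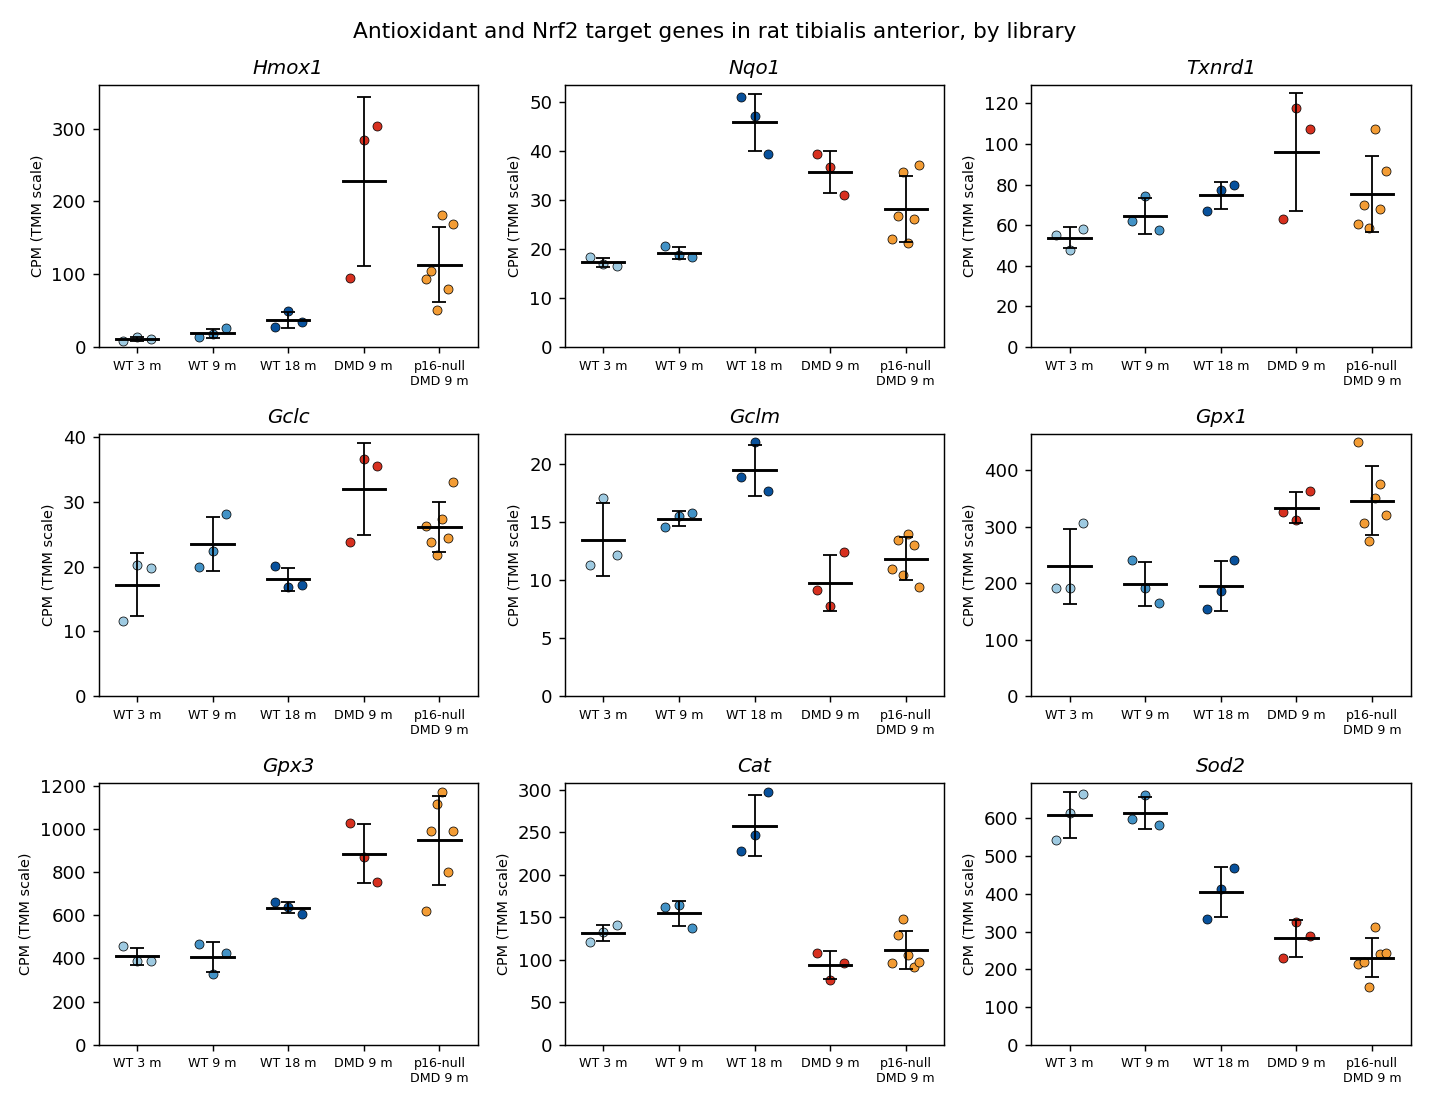
Normalised level (CPM on 1 TMM scale, linear axis from 0) of the 9 genes in each library; points are libraries, the bar is the group mean and the whiskers are 1 SD (n = 3, or n = 6 for p16-null DMD). Hmox1 lies above every WT library in all 9 dystrophic libraries, Sod2 below, and Cat is highest at 18 months.

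Hmox1, which cleaves haem into biliverdin, iron and carbon monoxide, changed most of the 9 in DMD. It read 8.08, 14.3 and 11.6 CPM at 3 months, 13.6, 17.4 and 25.9 CPM in WT at 9 months and 27.8, 49.99 and 33.9 CPM at 18 months. In DMD it read 94.3, 284 and 304 CPM, and in p16-null DMD 51.4 to 181 CPM with a median of 98.8. All 9 dystrophic libraries were above all 9 WT libraries, while replicate 1 of DMD lay within the p16-null range and the other DMD libraries above it. The 3 and 9 month WT ranges overlapped, and the 18 month range lay above both. The change was 3.58 ± 0.50 in DMD (adjusted p = 4.3e-05), 2.58 ± 0.45 in p16-null DMD (2.3e-04) and 1.72 ± 0.24 at 18 months (1.5e-04), and each of these passed under every alternative run. On the length-scaled TPM values, Hmox1 ranked 8 of 9 genes at 3 months (mean 8.76 TPM) and 3 of 9 in DMD (307 TPM).

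Macrophage markers, like Hmox1, were higher in the dystrophic groups and at 18 months than in WT of 3 and 9 months. The summed level of 14 macrophage genes stood at 2519 to 3952 CPM in DMD, 1688 to 4947 in the p16-null DMD libraries, 707 to 1031 in WT of 18 months and 434 to 479 in WT of 9 months. All 14 rose in DMD, 10 of 13 tested rose at 18 months and none was at 0 in any group. Within the dystrophic libraries the highest Hmox1 was not in the library with the highest macrophage sum. In p16-null DMD, replicate 1 had the highest sum, 4947 CPM, with Hmox1 at 93.4 CPM. Replicate 6 of that group had its lowest sum, 1688 CPM, with Hmox1 at 169 CPM. In DMD, replicate 3 was highest in both and replicate 1 lowest in both. Hmox1 per CPM of macrophage markers ran from 0.0189 to 0.1001 in p16-null DMD. It ran from 0.0374 to 0.112 in DMD and from 0.0285 to 0.0571 in WT at 9 months. These 3 ranges overlapped. The part of macrophages in the rise of Hmox1 was not tested. In bulk muscle more cells of a type and more RNA per cell cannot be told apart.

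**Figure D2:**
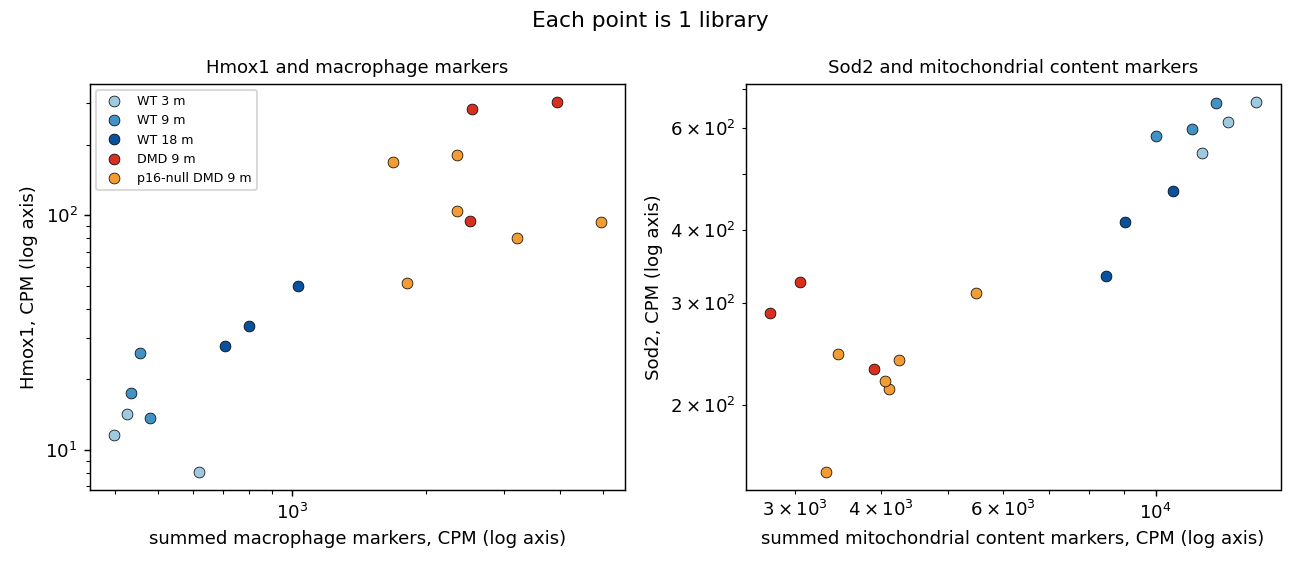
Hmox1 against the sum of 14 macrophage markers (left) and Sod2 against the sum of 12 mitochondrial markers (right), both in CPM on log axes, 1 point per library. Dystrophic libraries lie at the upper right on the left panel and at the lower left on the right panel; library size, tissue make-up and scaling are shared by both axes.

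Nqo1, which reduces quinones in a single step and is a standard readout of Nrf2, rose in both dystrophic groups and with age. Its values were 18.3, 16.9 and 16.5 CPM at 3 months and 20.6, 18.8 and 18.3 CPM at 9 months in WT. At 18 months they were 50.9, 47.0 and 39.3 CPM. DMD gave 39.3, 36.7 and 30.9 CPM and p16-null DMD 21.2 to 37.2 CPM with a median of 26.4. The order from low to high was 3 months, 9 months, p16-null DMD, DMD and 18 months, and of these neighbours p16-null DMD and DMD overlapped. The change was 0.90 ± 0.22 in DMD (adjusted p = 0.0042) and 1.41 ± 0.15 at 18 months (1.5e-05), both kept under every alternative. In p16-null DMD it was 0.56 ± 0.20 (0.028), and this call was lost without p16-null DMD replicate 3 or without any 1 of the 3 WT libraries (adjusted p = 0.051 to 0.092). The call was also lost when replicate number entered the fit as a block.

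Txnrd1, the cytosolic selenoenzyme that keeps thioredoxin reduced, differed less. It read 55.4, 48.0 and 58.2 CPM at 3 months, 62.0, 74.4 and 57.4 CPM at 9 months and 67.1, 77.3 and 79.7 CPM at 18 months in WT. In DMD it read 62.8, 118 and 107 CPM, and in p16-null DMD 58.7 to 108 CPM with a median of 69.2. Neighbouring groups overlapped at every step of the order, and DMD replicate 1 sat among the WT libraries. The rise at 18 months passed (0.48 ± 0.13, adjusted p = 0.018), but not in 1 fit of all 18 libraries (0.19), nor without replicate 2 of 3 months or replicate 2 or 3 of 18 months (0.065 to 0.082). In DMD the value of 0.57 ± 0.25 missed the threshold (0.066) and passed without p16-null DMD replicate 4, which enters the shared estimate of the spread (0.58, 0.042), and without DMD replicate 1 (0.80, 0.013), and by library totals it was 1.22 (4.7e-04). The value in DMD also passed in TPM, in 1 fit of all 18 libraries and with replicate number as a block. In p16-null DMD the change was 0.23 ± 0.21 (0.4), and 0.83 by library totals (0.0032).

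Gclc and Gclm encode the catalytic and the modifier subunit of glutamate-cysteine ligase, the rate-limiting enzyme of glutathione synthesis, and neither passed in p16-null DMD against WT with TMM. Gclc read 11.5, 20.2 and 19.8 CPM at 3 months, 19.9, 22.4 and 28.1 CPM at 9 months and 20.1, 16.9 and 17.2 CPM at 18 months in WT. In DMD it read 23.9, 36.7 and 35.6 CPM, and in p16-null DMD 21.9 to 33.1 CPM with a median of 25.4. DMD replicate 1 was again the lowest of its group, every neighbouring pair of groups overlapped, and Gclc passed in no comparison with TMM (0.45 ± 0.20, adjusted p = 0.076 in DMD). It passed in DMD without DMD replicate 1 (0.62, 0.022) or WT replicate 3 (0.61, 0.043), and by library totals at 1.09 in DMD (6.2e-04) and 0.76 in p16-null DMD (0.0033).

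Gclm was lowest in the dystrophic groups on the TMM scale, where Gclc was highest. WT values were 11.3, 17.0 and 12.1 CPM at 3 months, 14.5, 15.5 and 15.7 CPM at 9 months and 18.8, 21.9 and 17.6 CPM at 18 months. In DMD they were 9.10, 7.74 and 12.4 CPM, and in p16-null DMD 9.36 to 13.9 CPM with a median of 11.9. All dystrophic libraries lay below all WT libraries of 9 and of 18 months. Gclm fell in DMD with TMM (-0.64 ± 0.21, adjusted p = 0.021), while by library totals it was 0.01 and in TPM 0.09, both without a call. In p16-null DMD it was -0.36 ± 0.18 (0.11), and 0.24 by library totals. Relative to the median gene the DMD value stood at -0.76 with TMM, -0.75 by library totals and -0.56 in TPM. The TMM call was also lost without WT replicate 2 or 3 or DMD replicate 1 or 2 (0.053 to 0.089). At 18 months Gclm did not overlap with 3 months but missed the threshold (0.54 ± 0.20, 0.071), which it passed by library totals (0.77, 0.014) and without replicate 2 of 3 months (0.74, 0.025). It also passed in TPM and with replicate number as a block.

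Gpx1, the abundant selenium-dependent peroxidase of cytosol and mitochondria, was higher in dystrophic than in WT muscle of 9 months, with no call between old and young. WT values were 192, 191 and 307 CPM at 3 months, 240.2, 191 and 164 CPM at 9 months and 154, 186 and 242 CPM at 18 months. DMD gave 326, 311 and 364 CPM and p16-null DMD 275 to 449.8 CPM with a median of 336. The 3 WT groups overlapped, DMD lay above all of them, and p16-null DMD overlapped the highest library of 3 months. The change was 0.75 ± 0.19 in DMD (adjusted p = 0.004) and 0.81 ± 0.17 in p16-null DMD (1.0e-03), both passed under every alternative. At 18 months it was -0.24 ± 0.19 (0.43, 95% interval -0.64 to 0.17).

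Gpx3, the secreted peroxidase of extracellular fluid, was the most abundant of the 9 per length in DMD (mean 1255 TPM, against 864 TPM for Gpx1). It read 457, 386 and 386 CPM at 3 months, 469, 330.1 and 423 CPM at 9 months and 659.8, 639 and 608 CPM at 18 months in WT. In DMD it read 1029.7, 871 and 755 CPM, and in p16-null DMD 618 to 1173 CPM with a median of 992. The 18 month libraries lay above the younger WT groups, and DMD above 18 months. Its rise was 1.13 ± 0.24 in DMD (adjusted p = 0.0013), 1.23 ± 0.22 in p16-null DMD (2.7e-04) and 0.64 ± 0.12 at 18 months (0.0022), and each passed under every alternative. Markers of fibroblasts and adipocytes were higher in the dystrophic groups: 7 fibroblast genes summed to 2146 to 2284 CPM in WT at 9 months and 5589 to 10078 in DMD, and 7 adipocyte genes to 302 to 349 and 1557 to 1621 CPM. In p16-null DMD the fibroblast sum ran from 5671 to 14975 CPM and the adipocyte sum from 354 to 2151 CPM. Replicate 4, with the highest Gpx3 of that group (1173 CPM), had its highest fibroblast sum and its lowest adipocyte sum. Replicate 3, with the next highest Gpx3 (1113 CPM), had the reverse, the lowest fibroblast sum and the highest adipocyte sum of the group. At 18 months the fibroblast sum was 1987 to 2278 CPM, below the 3489 to 6701 CPM of 3 months, while Gpx3 was higher. The part of these cells in the levels of Gpx3 was not tested.

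Cat, which splits hydrogen peroxide in peroxisomes, rose with age and fell in DMD with TMM. WT values were 122, 132 and 141 CPM at 3 months, 162, 164 and 138 CPM at 9 months and 228, 248 and 298 CPM at 18 months. In DMD they were 109, 76.6 and 96.6 CPM, and in p16-null DMD 91.3 to 148 CPM with a median of 102. All 3 libraries of 18 months lay above every other library, and all 3 of DMD below every WT library. The rise at 18 months was 0.98 ± 0.13 (adjusted p = 1.2e-04), passed under every alternative. The change in DMD was -0.71 ± 0.20 (0.0087) with TMM, -0.06 by library totals and 0.04 in TPM, the last 2 without a call. Relative to the median gene these were -0.83, -0.82 and -0.61. In p16-null DMD the value of -0.46 ± 0.17 (0.034) became 0.15 by library totals and 0.27 in TPM, again without a call, and the TMM call was lost without any 1 of WT replicates 1 and 2 and p16-null DMD replicates 1, 4, 5 and 6 (0.054 to 0.11). This call was also lost with replicate number as a block.

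Red blood cells are rich in catalase. The sum of 5 of their markers was 686 to 1498 CPM at 3 months, 981 to 1237 at 9 months, 176 to 225 at 18 months and 142 to 258 in DMD. Cat and this sum were both lower in DMD than in WT of 9 months, while at 18 months Cat was higher and the sum lower than at 3 months. Slc4a1, of the red cell membrane, was at 0 in all 3 libraries of 18 months and of DMD, and the part of red cells in the levels of Cat was not tested.

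Sod2, the superoxide dismutase of the mitochondrial matrix, fell with age and in dystrophy. It read 544, 615 and 665 CPM at 3 months, 597, 662 and 582 CPM at 9 months and 334, 413 and 467 CPM at 18 months in WT. In DMD it read 231, 326 and 289 CPM, and in p16-null DMD 153 to 312 CPM with a median of 229.7. The 3 and 9 month groups overlapped, 18 months lay below both, and DMD below 18 months. The change was -1.12 ± 0.21 in DMD (adjusted p = 5.1e-04), where it was -0.48 by library totals (0.044) and -0.36 in TPM (0.082, no call). In p16-null DMD it was -1.41 ± 0.17 (1.3e-05), and -0.81 by library totals (5.8e-04). At 18 months it was -0.58 ± 0.14 (0.0097), a call lost by library totals (-0.35, 0.062), in TPM (-0.23, 0.19) and without replicate 1 of 18 months (-0.45, 0.061).

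The sum of 12 mitochondrial genes was 11676 to 13991 CPM at 3 months, 10008 to 12243 at 9 months, 8482 to 10607 at 18 months and lowest in dystrophy, with 2759.8 to 3905 for DMD and 3325 to 5492 for p16-null DMD. All 12 fell in both dystrophic groups, by library totals too, and 5 of 12 at 18 months (2 of 12 by library totals). Sod2 per CPM of this sum ran from 0.0591 to 0.107 for DMD and from 0.0529 to 0.0581 for WT of 9 months, all 3 DMD values being above those of WT, while p16-null DMD overlapped WT and ran from 0.0461 to 0.0706. The part of mitochondrial content in the fall of Sod2 was not tested. Markers of regenerating fibres were higher both in DMD and at 18 months: 6 such genes summed to 100.3 to 112 CPM at 3 months, 71.1 to 97.4 at 9 months, 507 to 532 at 18 months and 691 to 1227 in DMD. In p16-null DMD this sum was 703 to 1364 CPM. The groups with sums above those of 3 and 9 months had more Nqo1, Hmox1 and Gpx3 and less Sod2 than these. Among the raised groups, the mean sum increased from 18 months to DMD to p16-null DMD. Mean Gpx3 rose and mean Sod2 fell in that order, while mean Nqo1 was highest at 18 months and mean Hmox1 in DMD. Between DMD and p16-null DMD, however, the sums and the levels of these genes overlapped. In p16-null DMD against DMD neither Gpx3 (0.10, adjusted p = 0.99) nor Sod2 (-0.29, 0.94) passed. The part of regenerating fibres in these levels was not tested.

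**Figure D3:**
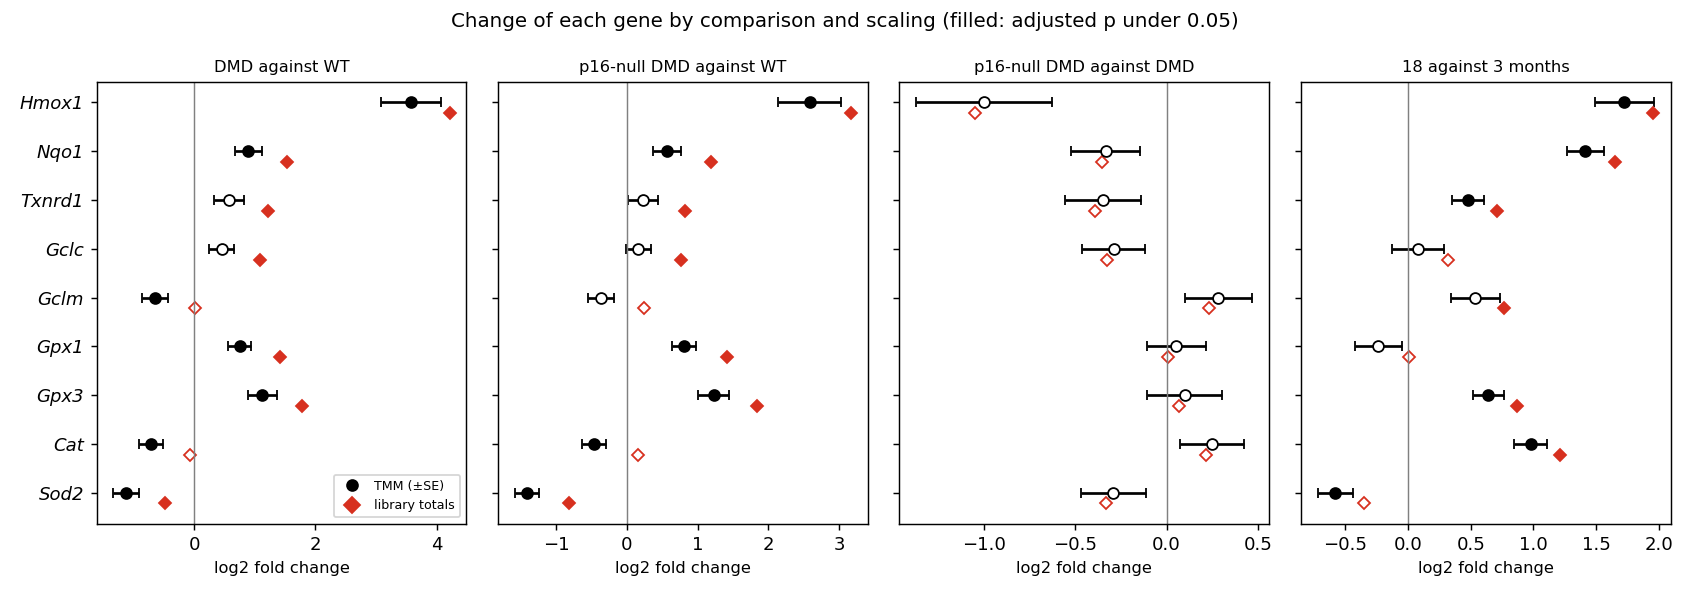
Log2 fold change of each gene in 4 comparisons, with TMM (black circles, ± SE) and with library totals (red diamonds); filled symbols have an adjusted p under 0.05. Gclm and Cat lie below 0 in DMD with TMM (-0.64 and -0.71) and near 0 with library totals, and p16-null DMD against DMD holds no filled symbol.

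Between p16-null DMD and DMD none of the 9 genes passed in edgeR, where 0 of all tested genes rose (0%) and 1 fell (0.00676%). DESeq2, library totals and limma on TPM also called 0 of the 9. At an unadjusted p under 0.05 there was 1 gene of the 9, Hmox1, at -0.999 ± 0.37 (unadjusted p = 0.017, adjusted p = 0.8). Of all 14801 tested genes 764 had such a p. Hmox1 is described further. The 95% interval of Hmox1 was -1.79 to -0.21, and the groups overlapped through DMD replicate 1. Without that library the value was -1.36 (adjusted p = 0.15), and without DMD replicate 3 it was -0.74 (0.99). For Nqo1 the interval was -0.73 to 0.07, for Gpx3 -0.34 to 0.54, for Gpx1 -0.29 to 0.40 and for Sod2 -0.67 to 0.09. The intervals of Gclc (-0.65 to 0.07), Gclm (-0.11 to 0.68), Txnrd1 (-0.79 to 0.10) and Cat (-0.12 to 0.62) also held 0. A p that misses the threshold does not show that the levels are equal, and differences within the intervals that held 0 cannot be told from 0 here. The interval of Hmox1 did not hold 0, but it is not adjusted for the number of genes tested, and its adjusted p missed the threshold.

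Ratios of related genes within a library do not depend on how libraries are scaled against each other. The TPM ratio of Gclm to Gclc was 1.62, 1.53 and 1.23 in WT at 9 months and 0.835, 0.456 and 0.770 in DMD, with 0.618 to 1.24 with a median of 1.09 in p16-null DMD. At 3 and 18 months it was 2.15, 1.85 and 1.36 and 2.05, 2.84 and 2.26. Thus every WT library held more Gclm than Gclc per length, every DMD library less, and p16-null DMD overlapped both. The log2 difference was -1.12 in DMD and -0.54 in p16-null DMD.

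Txnrd1 against Txnrd2, its mitochondrial counterpart, gave 0.903, 1.34 and 1.01 in WT at 9 months, 1.59, 1.92 and 1.52 at 18 months and 3.67, 6.32 and 7.11 in DMD, with 2.49 to 5.36 with a median of 3.40 in p16-null DMD. WT at 3 months gave 0.901, 0.750 and 0.872. The difference of 2.36 (log2) in DMD went with a fall of Txnrd2, from 32.4 ± 3.78 to 9.14 ± 1.002 CPM (-1.82 ± 0.19, adjusted p = 6.0e-06, and -1.18 by library totals). Hmox1 against Hmox2, the constitutive haem oxygenase, gave 0.422, 0.556 and 0.831 in WT at 9 months and 3.38, 9.55 and 12.6 in DMD. Hmox2 itself was -0.22 ± 0.14 in DMD with TMM and did not pass (0.21). In TPM Hmox2 read 25.6, 23.6 and 26.4 in WT at 9 months and 38.9, 36.2 and 35.4 in DMD, without overlap. Sod2 against the cytosolic Sod1 gave 1.14, 1.05 and 1.09 at 3 months, 1.01, 1.03 and 0.923 at 9 months, 0.625, 0.634 and 0.687 at 18 months and 0.526, 0.644 and 0.826 in DMD. The 18 month and DMD libraries were all below the younger WT libraries. In p16-null DMD the ratio ran from 0.453 to 0.998 and overlapped WT of 9 months. Sod1 itself read 147, 173 and 150 TPM at 3 months and 204, 236 and 238 TPM at 18 months, without overlap. In WT at 9 months Sod1 read 172, 177 and 197 TPM and in DMD 227, 228 and 186 TPM, with overlap. Gpx3 against Gpx1 overlapped between DMD (1.70, 1.83 and 0.985) and WT (1.08, 0.851 and 1.29).

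The 5 ratios in 4 comparisons made 20 two-sided exact permutation tests. With 3 libraries against 3 the smallest possible p is 0.10, and 6 against 3 allows 0.0238. The smallest p was reached in DMD against WT by every ratio but that of Gpx3 to Gpx1, in p16-null DMD against WT by those of Txnrd1 to Txnrd2 and Hmox1 to Hmox2, and at 18 against 3 months by every ratio but that of Gclm to Gclc. At 18 months the ratio of Gpx3 to Gpx1 was 0.88 (log2) higher than at 3 months, without overlap. After adjustment over the 20 tests none passed (lowest adjusted p = 0.14).

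**Figure D4:**
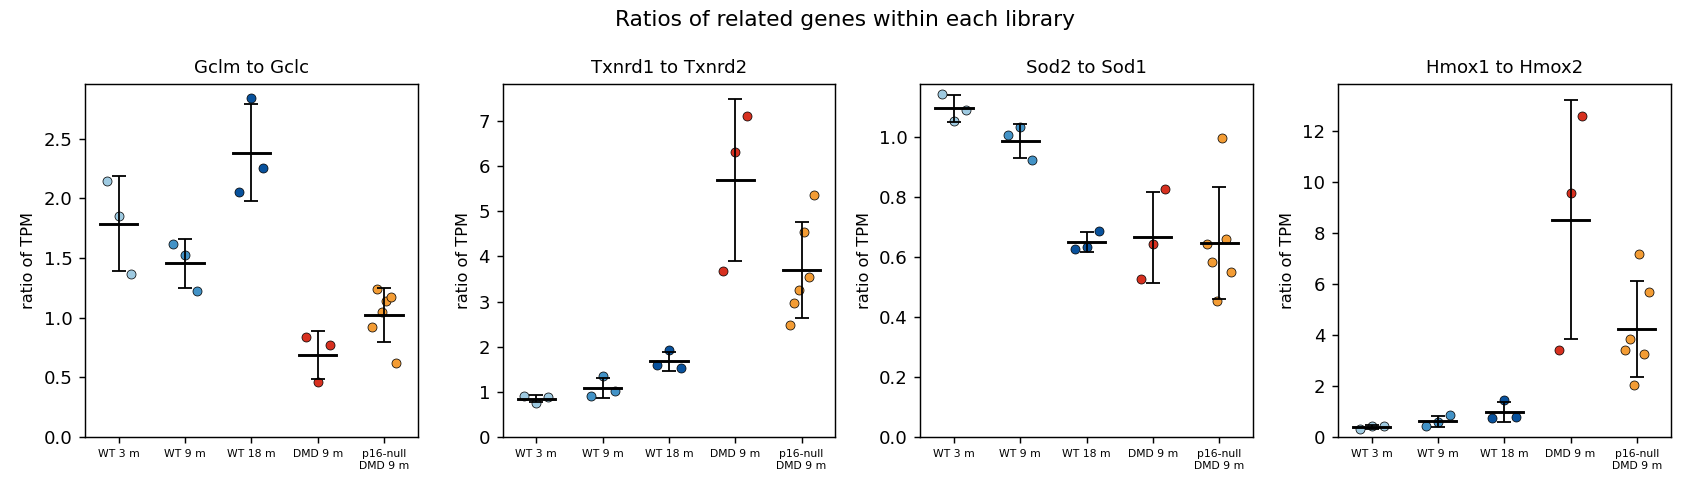
Within-library TPM ratios of 4 gene pairs (linear axes from 0); points are libraries, bars are means and whiskers 1 SD. The Gclm to Gclc ratio is above 1 in all 9 WT libraries and below 1 in all 3 DMD libraries, and Txnrd1 to Txnrd2 is highest in DMD.

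Dystrophy and age moved some members differently. The difference between the DMD effect at 9 months and the 18 against 3 month effect, which share no library, was tested in 1 fit of all 18 libraries, a test chosen after the values were seen. With TMM it was positive for Hmox1 and Gpx1 and negative for Cat and Gclm, 2 of 9 each way, where 13.8% of all genes were called in each direction. For Cat it was -1.69 ± 0.25 (adjusted p = 1.1e-04), and -1.27 by library totals (0.0023). This difference held when any 1 library of the 4 groups was left out. Gpx1 differed by 0.99 (0.019), lost without replicate 3 of 3 months (0.051) or replicate 1 of 18 months (0.06). For Gclm the value of -1.18 (0.0065) was -0.76 by library totals (0.076, no call). That of Hmox1, 1.86 (0.03), was lost without any 1 of WT replicates 1 and 2, DMD replicates 2 and 3, replicate 2 of 3 months and replicates 1 and 3 of 18 months (0.056 to 0.082). Nqo1, Sod2, Gpx3, Txnrd1 and Gclc did not differ beyond the threshold with TMM.

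Among 15 tested genes that regulate Nrf2 or share its sites, 2 rose and 6 fell in DMD with TMM (median -0.25, all genes 0.11). By library totals 6 rose and 3 fell (median 0.41, all genes 0.76). Of all genes 26.4% were higher and 21.8% lower with TMM, and 52% and 8.38% by library totals. Nfe2l2, which encodes Nrf2, read 59.3, 74.3 and 63.0 CPM in WT at 9 months and 66.5, 110.2 and 98.5 CPM in DMD, overlapping through DMD replicate 1. At 0.49 ± 0.19 it just passed (adjusted p = 0.043), and the call was lost with DESeq2 (0.056), with RLE scaling (0.061), in a fit of the compared groups alone (0.065) and without WT replicate 1 or 3 or DMD replicate 2 or 3 (0.11 to 0.18). Keap1, the sensor that holds Nrf2 back, read 87.9, 59.7 and 75.7 CPM in WT and 36.5, 46.6 and 38.2 CPM in DMD without overlap. It was lower with TMM (-0.88 ± 0.16, 4.8e-04) but did not pass by library totals (-0.23, 0.19). Cul3, the scaffold of the ligase that Keap1 recruits, was lower with TMM (-1.02 ± 0.13, 2.3e-05) and by library totals (-0.38, 0.025), and did not pass in TPM (-0.25, 0.1).

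Sqstm1, the autophagy adaptor p62 that binds Keap1, moved in opposite directions in DMD and with age. It was 315 ± 31.1 CPM in DMD and 669.7 ± 43.4 in WT (-1.08 ± 0.15, adjusted p = 3.7e-05, -0.44 by library totals and, without a call, -0.33 in TPM). At 18 months it was 858 ± 99.7 CPM and at 3 months 428 ± 15.7 (1.01 ± 0.13, 7.6e-05). Bach1, the haem-sensing repressor of Hmox1, rose with age from 12.8, 13.8 and 12.3 CPM to 32.4, 28.1 and 32.7 CPM (1.27 ± 0.15, 5.6e-05). Nfe2l1, a relative of Nrf2, rose by 1.17 (1.5e-05) and the small Maf gene Maff by 1.23 (8.2e-04). Nfe2l2 passed at 18 months (0.46 ± 0.14, 0.029) but not in 1 fit of all 18 libraries (0.11), nor without replicate 1 or 3 of 3 months or replicate 1 or 2 of 18 months (0.056 to 0.13). In all 5 of 15 regulators rose and 2 fell at 18 months, where 9.31% of all genes rose and 10.1% fell. By library totals 7 regulators rose and 0 fell, where 19.3% of all genes rose and 4.83% fell. Bach1 in DMD (0.63 ± 0.24, 0.046) passed, but not with DESeq2 (0.054) or RLE scaling (0.06), in a fit of the compared groups alone (0.09), or without WT replicate 1, DMD replicate 3 or p16-null DMD replicate 2, 3 or 5 (0.053 to 0.3). Nor did it pass with replicate number as a block.

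Counts in the lists that follow stand beside the shares of all genes given above, and where they are near those shares they set a list apart from no other genes. Other reported Nrf2 targets were mixed: in DMD 9 of 27 tested genes were higher and 5 lower (18 and 2 by library totals), with a median of 0.31, where 26.4% and 21.8% of all genes were called (52% and 8.38% by library totals). Akr1b8, an aldo-keto reductase, rose from 9.33 ± 1.13 to 36.8 ± 3.22 CPM (1.98 ± 0.15, adjusted p = 9.1e-07) and at 18 months by 1.34 (2.2e-04). Ugdh, which makes UDP-glucuronate, rose in DMD by 2.89 (7.6e-05). Malic enzyme Me1, a source of NADPH, fell from 326 ± 41.7 to 91.6 ± 18.1 CPM (-1.83 ± 0.22, 1.3e-05) and also at 18 months (-0.86 ± 0.12, 2.1e-04), and Gstm2, a glutathione transferase, was -1.93 in DMD (4.0e-06). All 4 kept their direction and call in DMD by library totals and in TPM. At 18 months 5 of 26 rose and 2 fell (10 and 2 by library totals), led by Gsta1 (1.31, 1.2e-05).

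In the glutathione list 8 of 24 tested genes were higher and 11 lower in DMD (12 and 2 by library totals). The membrane transferase Mgst1 rose by 2.65 (adjusted p = 1.2e-04) and Gpx7, a peroxidase of the endoplasmic reticulum, by 1.79 (5.3e-05). Chac1, which degrades glutathione, was 73.4 ± 48.7 CPM in WT and 2.41 ± 0.543 in DMD (-4.92 ± 0.72, 6.3e-05), and Glrx5, a mitochondrial glutaredoxin, was -1.18 (7.6e-05). At 18 months 3 of 23 rose and 7 fell (4 and 2 by library totals), with Mgst2 at 1.94 (6.7e-05) and Glo1, of methylglyoxal removal, at -0.74 (4.5e-04).

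Of the peroxiredoxins, thioredoxins and superoxide dismutases, 2 of 21 tested genes were higher and 9 lower in DMD (5 and 4 by library totals). Prdx3, the matrix peroxiredoxin, fell from 340.5 ± 36.5 to 79.0 ± 19.3 CPM (-2.10 ± 0.19, adjusted p = 2.5e-06), Txn2 was -1.16 (3.6e-05), and Park7, a redox-sensitive chaperone, -1.57 (1.2e-05). Together with Txnrd2 these kept their fall by library totals (-1.45, -0.52 and -0.93). The mitochondrial marker sum above fell in the same libraries, and its part was not tested. At 18 months 1 rose and 6 fell of 21 (2 and 3 by library totals), where Prdx3 did not pass (-0.21 ± 0.12, 0.23). Among selenium and NADPH supply genes 0 of 12 tested genes were higher and 7 lower in DMD (4 and 5 by library totals), with Me3 at -2.01 (1.4e-05), Idh2 at -1.53 (2.1e-04) and Pstk, of selenocysteine synthesis, at -1.79 (4.5e-05). Pstk also fell at 18 months, by 1.29 (1.1e-04).

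Oxidant-producing enzymes were mostly higher in DMD: 9 of 15 tested genes were higher and 2 lower (11 and 1 by library totals), with a median of 1.52. Xdh, xanthine dehydrogenase, rose from 80.7 ± 13.4 to 279 ± 62.4 CPM (1.80 ± 0.21, adjusted p = 9.8e-06). Nox4, an NADPH oxidase, rose by 1.97 (3.7e-04), while the neuronal nitric oxide synthase Nos1, which dystrophin anchors at the muscle membrane, fell by 2.33 (1.7e-04). At 18 months 2 of 14 rose, Nox4 (2.06, 2.6e-04) and Xdh (0.88, 0.0022), and none fell (3 and 0 by library totals). Of the haem and iron genes 4 of 15 tested genes were higher and 3 lower in DMD (12 and 3 by library totals). These included Cd163, the macrophage receptor for haemoglobin, at 2.46 (2.1e-05), Lrp1, a receptor for haem-haemopexin, at 1.92 (2.0e-06), and Fech, which inserts iron into haem, at -1.38 (4.6e-06). The transferrin receptor Tfrc fell from 383 ± 81.1 CPM at 3 months to 70.3 ± 6.29 at 18 months (-2.44 ± 0.16, 1.4e-07).

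All 3 tested metallothioneins, metal-binding proteins that also scavenge oxidants, rose in DMD, and 2 of 3 at 18 months (3 of 3 by library totals). Mt2A was 10.7 ± 2.90 CPM in WT at 9 months, 360.3 ± 218 in DMD and 159 ± 106 in p16-null DMD (5.08 ± 0.68 in DMD, adjusted p = 3.4e-05). At 18 months it was 46.9 ± 14.2 CPM against 4.19 ± 0.912 at 3 months (3.49 ± 0.24, 2.0e-07). Across the 8 lists, 123 genes were tested in DMD. None of them passed between p16-null DMD and DMD in edgeR, by library totals or in TPM. In edgeR 10 had an unadjusted p under 0.05, as had 764 of all 14801 tested genes. Mt1 and Mt2A were among the 10, and the median change of the 3 tested metallothioneins in this comparison was -1.17, without a call.

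**Figure D5:**
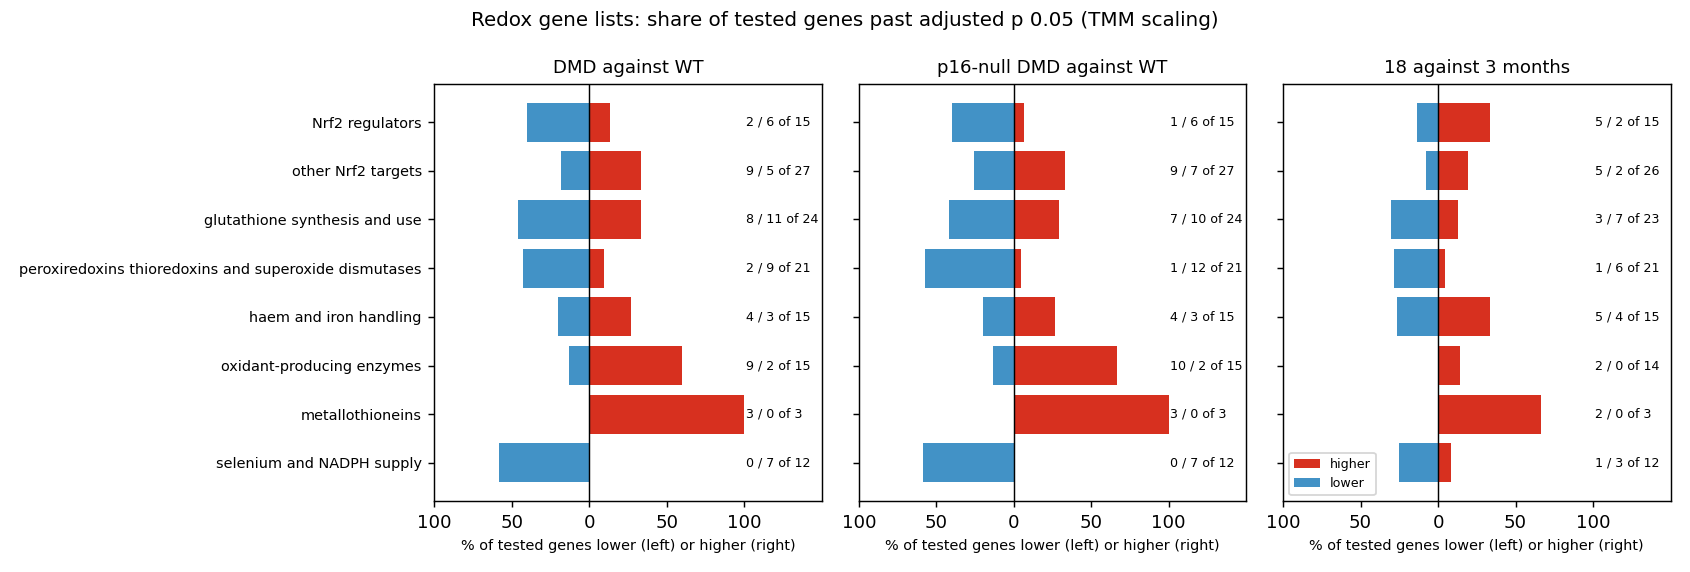
Share of the tested genes of 8 redox lists that were higher (red, right) or lower (blue, left) at an adjusted p under 0.05 with TMM scaling; the text at the right of each bar gives higher / lower of tested. Oxidant-producing enzymes lean to the right in both dystrophic comparisons (9 / 2 and 10 / 2 of 15, and 11 / 1 in both by library totals) and peroxiredoxins, thioredoxins and superoxide dismutases to the left (2 / 9 and 1 / 12 of 21); by library totals the latter are 5 / 4 of 21 in both.

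Across the 18 libraries, which share scaling and fall into 5 groups, the members' log2 levels correlated in ways that differed from those within groups (deviations from the group mean). Hmox1 went with Txnrd1 (r = 0.77, within groups 0.75) and with Gclc (0.80, 0.74). With Sod2 it was opposed across groups and aligned within them (-0.72, 0.75). DMD replicate 1, the lowest DMD library for all 4 of these genes, contributes to the values within groups. Hmox1 and Gpx3 were aligned across groups but not within them (0.80, -0.14), and Gpx3 and Sod2 were opposed across groups alone (-0.88, -0.16). These are descriptions of 18 libraries.

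The named genes whose pattern over the 18 libraries was most like that of a member are given with Pearson's r and, after it, r within groups. For Hmox1 they were Litaf (r = 0.97, within groups 0.87), Jak2 (0.97, 0.85) and Mt2A (0.97, 0.80). Mt2A is the metallothionein described above. For Sod2 they were Tmem11 (r = 0.97, within groups 0.81), Slc16a1 (0.96, 0.74) and Rbm18 (0.96, 0.73), of which Tmem11 is a mitochondrial inner membrane protein. For Cat they included Decr1 (r = 0.92, within groups 0.83) and Entpd5 (0.91, 0.42), where Decr1 is a mitochondrial enzyme of fatty acid oxidation. For Gpx3 they were Fbln1 (r = 0.96, within groups 0.83), Sfrp2 (0.95, 0.66) and Hs2st1 (0.95, 0.87), where Fbln1 and Sfrp2 encode secreted proteins of connective tissue. For Gpx1 they were Crlf2 (r = 0.93, within groups 0.92), Hm13 (0.92, 0.79) and Tkt (0.92, 0.69), where Tkt is the transketolase of the pentose phosphate pathway. The highest r was 0.91 for Nqo1 (Cables2), 0.90 for Txnrd1 (Kri1), 0.90 for Gclc (Nol9) and 0.89 for Gclm (Ap5m1).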

How the data were processed

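RNA of 18 libraries of frozen tibialis anterior was sequenced from TruSeq libraries, per the labels' protocols. Per the submitters' processing notes, the tools were Trimmomatic, FastQC, STAR 2.7.10b and RSEM 1.3.3 on mRatBN7.2, with parameters not given in the sources used here. The authors deposited RSEM expected counts (4.50% of values not whole) and, per the file headers, a matching table of TPM. Counts were rounded and tested here with edgeR 4.0.16 (quasi-likelihood, filterByExpr, TMM, Benjamini-Hochberg) in R 4.3.3. One fit held the 12 libraries of 9 months (14801 genes), another the 6 of 3 and 18 months (13487 genes). TPM ratios were tested with SciPy 1.17.1, and limma 3.58.1, DESeq2 1.42.0 and other scalings, filters and left-out libraries served as alternatives. The fits were tested on simulated data. The 10 genes and all lists were chosen with earlier results of these data known. Named were the 10 genes, Nfe2l2, Keap1 and Bach1, up to 4 genes of each pathway list with the smallest p per comparison, and the 3 genes most like each member with a mean log2 CPM of at least 2. List members without exactly 1 entry (206 of 223 had 1) were left out. Unstranded or stranded counting is not given, so overlapping antisense reads cannot be told apart. The main fits did not pair libraries by replicate number. Some genes that this rule names are not reported here.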

Additional observations from a re-analysis of the deposited data

How the results depend on the processing

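By library totals the members called lower were 1 in DMD against WT, 1 in p16-null DMD against WT and 0 at 18 against 3 months, and in the difference between the DMD and the age effect 1. In limma on log2(TPM + 1) and on log2(TPM + 0.1) they were 0 in DMD, 1 in p16-null DMD and 0 at 18 months, and in 1 fit of all 18 libraries 0 at 18 months. Of the values with a call, signs turned for Gclm in DMD (0.0078 by library totals, 0.087 and 0.090 in TPM), Cat in DMD (0.038 and 0.039 in TPM), Cat in p16-null DMD against WT (0.154, 0.268 and 0.271) and Keap1 in p16-null DMD against WT (0.0022 and 0.0029 in TPM). Without a call, scaling also turned Gclm in p16-null DMD against WT (0.24 by library totals, 0.36 and 0.38 in TPM) and, at 18 months, Gpx1 (0.0049, 0.10 and 0.11) and Keap1 (0.018, 0.11 and 0.11). TMM holds the median gene near 0, and library totals do not; which scale is nearer to the tissue was not tested. Of all genes 3914 were higher and 3228 lower in DMD with TMM, 7691 and 1240 by library totals and 8058 and 1044 in TPM, and at 18 months 1256 and 1366 became 2609 and 652. In p16-null DMD against WT 4073 and 3359 became 8071 and 1251.

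Leaving out 1 library gave 1 to 2 members lower in p16-null DMD against WT, 0 to 1 lower at 18 months and 0 to 2 higher in the difference between effects. Between p16-null DMD and DMD edgeR called 1 of all genes (764 at an unadjusted p under 0.05), DESeq2 15, the fit without DMD replicate 1 85, and 2 were called when DMD replicate 3 was left out, as when replicate 2 of p16-null DMD was. At 18 months 2622 genes were called, 1742 in 1 fit of all 18 libraries and 1696 without replicate 1 of 18 months. Same-numbered libraries did not deviate together (correlations of -0.22 to 0.13), and the main fits treated them as unpaired. The labels do not say what the numbers mean, and these correlations cannot exclude a shared origin. With a replicate block, 5 members were higher and 3 lower in DMD, 3 and 1 in p16-null DMD against WT, and 6 and 1 at 18 months, and the whole-table count between p16-null DMD and DMD was 0. The ratio tests could hardly pass at these sizes, so their alternatives say nothing about stability. Of the values of single genes under the alternatives, 1086 kept direction and call, 63 lost and 30 gained a call, 10 with a call and 17 without one turned sign. Dixon's criterion could be applied only in p16-null DMD, where no library stood apart in the 14 cases tested. Groups of 3 libraries were too small for it, so no WT or DMD library was checked. All 9 genes passed the filter on low counts in both fits.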

Other observations

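Sesn1, a stress-responsive sestrin, was 27.96 ± 4.05 CPM in DMD and 67.7 ± 4.34 in WT of 9 months (-1.27 ± 0.22, adjusted p = 2.6e-04 in edgeR, and -0.63 with 0.028 by library totals). Hp, the haptoglobin that binds free haemoglobin, was 19.4 ± 4.74 CPM in DMD against 3.32 ± 0.603 in WT (2.54 ± 0.34, 3.1e-05). With age the methionine sulfoxide reductase Msrb3 changed by -0.68 (8.8e-04; -0.45 by library totals) and Blvrb, a biliverdin reductase downstream of haem oxygenase, by 1.08 (6.4e-04; 1.32 by library totals). The neutrophil marker sum of 7 genes was 20.8 to 79.9 CPM in DMD libraries and 2.87 to 5.97 in those of WT at 9 months. Slc7a11, the cystine importer that feeds glutathione synthesis, had 1 count over the 3 WT libraries of 9 months and 62 over the 3 of DMD, a ratio of 38.1 on the TMM scale with an exact 95% interval of 6.58 to 1527 that covers counting error only.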
